A study of Mus musculus with 3 samples.

Results

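The SLAM family receptors and their adaptor SAP were followed here as 7 genes of 55536 in the deposited gene tables: Slamf1, Slamf6, Slamf7, Ly9, Cd48, Cd84 and Sh2d1a. They were chosen by name, as members of 1 receptor family together with an adaptor that binds the tails of some of them. The rule itself uses names alone, but the choice was made with earlier results of these data known. Polyadenylated RNA was sequenced from naive CD4+ αβ T cells of an adult male mouse of the strain B6.SJL-Ptprca Pepcb/BoyJ, 5 months old and with no treatment in the labels. The strain is a C57BL/6 line with the Ptprc allele of SJL mice, which is used to tell donor from host cells in transfers. There was 1 group, 1 animal and 3 technical libraries. Each SD below is therefore the spread between technical libraries (n = 3), and neither conditions nor animals can be compared. The labels name the whole organism as the source of the cells and do not give a sort gate.

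SLAM receptors are immunoglobulin-type surface proteins of blood cells. SLAMF1, SLAMF6, SLAMF7, Ly-9 and CD84 bind copies of themselves on neighbouring cells, whereas CD48 is held in the membrane by a lipid anchor and binds CD2 and CD244. The tails of the signalling members carry the immunoreceptor tyrosine-based switch motif: a threonine, any residue, a tyrosine, any pair of residues, and a valine or isoleucine. SAP, encoded by Sh2d1a, is a small adaptor made almost wholly of an SH2 domain. It docks on this motif, brings the kinase Fyn to the receptor, and keeps inhibitory phosphatases away from it. Loss of SAP in people causes X-linked lymphoproliferative disease, and mice without SAP lack natural killer T cells and form few germinal centres.

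The switch motif was searched in the coding sequences of GENCODE M21 on GRCm38 (mm10), after the most hydrophobic stretch of 21 residues in each protein, taken from residue 30 on to leave out the signal peptide. It occurred 2 times each in Slamf1, Slamf6, Ly9 and Cd84 and 1 time in Slamf7. Cd48 had 1 match, which lay before that stretch. The 9 coding stretches are shown 5′ to 3′ on the gene's own strand because the transcript results below turn on which of them a transcript keeps. Capitals mark the 18 bases of the motif, with 12 bases on each side.
Slamf1 switch motif 1: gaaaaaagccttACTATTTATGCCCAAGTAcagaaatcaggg
Slamf1 switch motif 2: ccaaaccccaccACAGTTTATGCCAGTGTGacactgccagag
Slamf6 switch motif 1: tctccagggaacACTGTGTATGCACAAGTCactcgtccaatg
Slamf6 switch motif 2: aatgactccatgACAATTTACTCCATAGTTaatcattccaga
Ly9 switch motif 1: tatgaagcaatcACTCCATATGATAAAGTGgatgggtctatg
Ly9 switch motif 2: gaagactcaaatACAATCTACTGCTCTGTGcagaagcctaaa
Cd84 switch motif 1: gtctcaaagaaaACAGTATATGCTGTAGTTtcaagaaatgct
Cd84 switch motif 2: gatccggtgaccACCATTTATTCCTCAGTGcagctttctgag
Slamf7 switch motif 1: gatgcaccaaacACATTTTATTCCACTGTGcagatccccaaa

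All 9 ended in a valine codon, and the tyrosine was written TAT in 7 and TAC in 2. Over the 36 pairs of motifs, 7 to 15 of 18 bases were identical. The most alike pair was Slamf1 motif 2 and Slamf7 motif 1. The motifs of Slamf1 lay in exon 5 (chr1:171792339-171792356) and exon 7 (chr1:171799588-171799605), on the plus strand. Those of Slamf6 lay in exon 6 (chr1:171939437-171939454) and exon 7 (chr1:171941664-171941681), and those of Cd84 in exon 6 (chr1:171884605-171884622) and exon 7 (chr1:171885601-171885618), also on the plus strand. On the minus strand, those of Ly9 lay in exon 8 (chr1:171593912-171593929) and exon 9 (chr1:171593438-171593455), and that of Slamf7 in exon 7 (chr1:171636327-171636344). Among the longest complete coding sequences of 21782 genes, 7.88% held at least 1 match anywhere in the protein and 0.601% held at least 2. A match is a description of these letters and not a docking site shown by these data.

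Of the 7 genes, 6 were detected, meaning at least 1 TPM in every library. The same rule held for 44.6% of 22028 protein-coding genes and for 21.4% of all genes. TPM is the deposited transcript abundance, scaled to the same sum in every library and corrected for transcript length, so it can be compared between genes. The 7 genes had a median of 79.9 TPM, beside 0.357 TPM over all protein-coding genes and 31.4 TPM over the 9823 detected ones. Together they made up 0.0538 to 0.0561% of all TPM. The 3 libraries held 14837442 to 18207118 expected counts. In library 2 ribosomal RNA made up 1.47% of TPM, beside 0.575% and 0.635% in libraries 1 and 3. In these bulk libraries fewer expressing cells and less RNA per cell cannot be told apart.

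**Figure D1:**
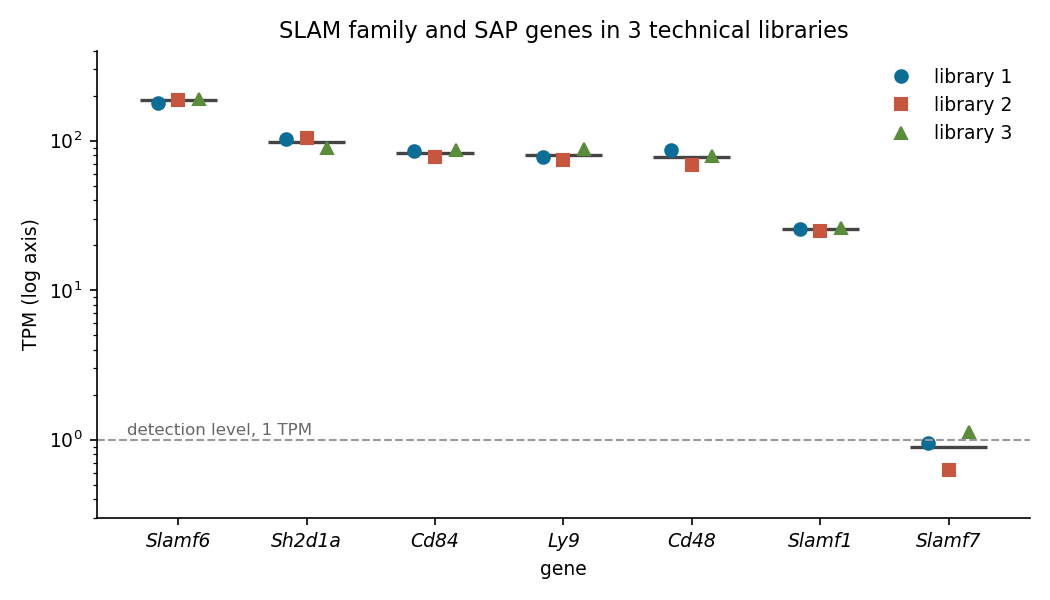
Deposited TPM of each gene (log axis) in technical libraries 1, 2 and 3, shown as circles, squares and triangles; the bar is the mean of the 3 libraries and the dashed line is the detection level of 1 TPM. Slamf6 stands highest at 187 TPM, 4 genes lie between 78.3 and 98.8 TPM, Slamf1 is at 25.5 TPM and Slamf7 lies around the dashed line.

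The T cell label was checked against markers. All 7 T cell genes and all 5 genes of naive T cells were detected, with summed levels of 5044 to 5619 TPM and 5967 to 6490 TPM across libraries. Other blood cells that carry SLAM receptors had far lower summed levels. B cell markers were detected for 1 of 5 genes and summed to 2.07 to 3.04 TPM. Natural killer cell markers were detected for 0 of 4 genes and summed to 0.12 to 0.29 TPM, with Klre1 and Klra8 at 0 counts. Myeloid and dendritic cell markers were detected for 1 of 7 genes and summed to 1.85 to 2.32 TPM, with Itgax at 0 counts. For plasma cells (0 of 3 detected, 0.28 to 0.61 TPM), platelets (0 of 4, 0.33 to 2.41 TPM) and blood stem cells (0 of 3, 0.15 to 0.36 TPM) the sums were also low. Of the CD8 genes, Cd8b1 was detected at 17.0 ± 0.235 TPM and Cd8a was not, at 0.140 ± 0.0458 TPM.

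Slamf6 (Ly108; chromosome 1, 171917515 to 171953170, plus strand), a self-binding receptor with 2 switch motifs, was the most abundant of the 7 genes. Its levels were 180, 189 and 191 TPM in libraries 1, 2 and 3 (187 ± 5.85), from 2173, 2801 and 2652 expected counts. The libraries lay close together, and the lowest of them was above every library of the other 6 genes. The gene ranked 876th of 22028 protein-coding genes by mean TPM.

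Cd84 (chromosome 1, 171839697 to 171890718, plus strand) and Ly9 (CD229; chromosome 1, 171588624 to 171607410, minus strand) are self-binding receptors that also carry 2 motifs each. Cd84 stood at 85.0, 77.3 and 86.6 TPM (83.0 ± 4.95). Ly9 stood at 77.5, 73.9 and 88.2 TPM (79.9 ± 7.41). Their ranges overlapped, and Cd84 was the higher in 2 of 3 libraries. The log2 ratio of Ly9 to Cd84, on TPM with 0.1 added, was −0.06 ± 0.08. The ratio of pooled, length-scaled counts was 0.965, with an exact Clopper-Pearson 95% interval of 0.930 to 1.00. On expected counts, without length correction, the mean log2 ratio was −0.10, with Cd84 still the higher. A further deposited table held whole-number counts on the older annotation GENCODE M4, also not corrected for length. On these M4 counts the log2 ratio was 0.91, with Ly9 the higher. Such intervals cover counting error only.

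Slamf1 (CD150; chromosome 1, 171767127 to 171801184, plus strand), the founding member of the family and a self-binding receptor known for its part in T helper cytokine production, was lower. It had 25.7, 24.9 and 25.9 TPM (25.5 ± 0.493), from 602, 764 and 727 expected counts. The spread was the smallest of the 7 genes relative to the mean, 1.94%. Slamf6 exceeded Slamf1 by a log2 ratio of 2.80, 2.91 and 2.88 in the 3 libraries (2.87 ± 0.06). The pooled ratio was 7.32 (95% interval 6.97 to 7.68). Summed over transcripts annotated as protein-coding alone, the gap was smaller, with 116 ± 2.86 TPM for Slamf6 and 24.0 ± 0.504 TPM for Slamf1. Without the length correction, on expected counts, the mean log2 ratio was 1.86.

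Slamf7 (CRACC; chromosome 1, 171632403 to 171653035, minus strand), a receptor best known from natural killer cells and plasma cells, was the only member not detected. Its levels were 0.95, 0.63 and 1.12 TPM (0.900 ± 0.249), from 22, 15 and 15 expected counts. Library 3 alone reached 1 TPM. The authors' credibility bounds ran from 0.424 to 2.03 TPM over the libraries, on the posterior scale, and their level is not stated in the files. Slamf1, the next gene up, was 28.3-fold higher. The part of natural killer cells and plasma cells in this level, whose marker sums are given above, was not tested.

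Cd48 (chromosome 1, 171682009 to 171705258, plus strand), the lipid-anchored ligand of the family, had 87.3, 68.8 and 78.9 TPM (78.3 ± 9.26). Its range overlapped those of Ly9 and Cd84. Library 1 was the highest and library 2 the lowest. Among its receptors, Cd2, an adhesion receptor of T cells, stood at 940, 751 and 968 TPM (886 ± 118). Cd48 was below Cd2 by a log2 ratio of −3.43, −3.45 and −3.62 (−3.50 ± 0.10), and the pooled ratio was 0.0882 (95% interval 0.0847 to 0.0918). On expected counts, without length correction, the mean log2 ratio was −3.45. On the M4 counts, also without length correction, it was −1.99, and the cause of that shift was not tested. Cd244a, the receptor of natural killer cells for the same ligand, had 2, 0 and 4 expected counts. Cd48 exceeded Cd244a by a pooled ratio of 857, with a 95% interval of 393 to 2337 that comes from those 6 counts. The remaining family genes, Slamf8 and Slamf9, had 2 and 1 expected counts over all libraries.

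Sh2d1a (chromosome X, 42502453 to 42529330, plus strand), the gene of SAP, was the second most abundant of the 7. It stood at 103, 104 and 89.6 TPM (98.8 ± 7.96), from 728, 867 and 782 expected counts. Library 3 was the lowest, yet it lay narrowly above the highest library of Ly9 (88.2 TPM), Cd48 (87.3 TPM) and Cd84 (86.6 TPM), so these ranges did not overlap. The related adaptors EAT-2, from Sh2d1b1, and ERT, from Sh2d1b2, are known from natural killer cells. Both genes had 0 counts in all 3 libraries. With a floor of 3 counts over the group put in for Sh2d1b1, Sh2d1a was 2442-fold higher. The lower end of the exact two-sided 95% interval of the pooled ratio was 1984.

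In order of mean level the genes ran Slamf6, Sh2d1a, Cd84, Ly9, Cd48, Slamf1 and Slamf7. Slamf6 was 1.89-fold above Sh2d1a, and Sh2d1a was 1.19-fold above Cd84, each in all 3 libraries. Summed over transcripts annotated as protein-coding alone, Sh2d1a (85.4 TPM) was below Cd84 (86.6 TPM) in library 3, and their ranges overlapped. Cd84, Ly9 and Cd48 were not told apart by their ranges. Cd48 was 3.07-fold above Slamf1 with no overlap.

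Between technical libraries, scaled counts of Ly9 and Cd48 differed by more than counting noise. The test was a chi-square test of homogeneity on expected counts, rounded and scaled by TMM library sizes, with Benjamini-Hochberg adjustment over 13090 genes. It called 2 of the 7 members, beside 40.0% of all genes tested. For Ly9 the adjusted p was 0.000523 and the highest library was 1.14 times the lowest. For Cd48 the adjusted p was 0.0179 and the highest library was 1.17 times the lowest. The deposited credibility bounds of Cd48 did not overlap between library 1 (69.3 to 79.3 TPM) and library 2 (56.6 to 64.7 TPM). Slamf6 was next, at an adjusted p of 0.0677. Adjusted p-values of the other 4 genes were 0.195 for Sh2d1a, 0.233 for Slamf7, 0.649 for Slamf1 and 0.861 for Cd84. Ly9 alone was called without library 1, where 36.8% of genes tested were called, and without library 2, where 14.7% were. Without library 3, Slamf6 and Cd48 were called, beside 27.6% of genes tested. On the M4 counts, 0 of 7 members were called by the same chi-square test, beside 18.9% of genes tested. There 1 member, Cd48, had an unadjusted p under 0.05. For an abundant gene, Ccr7, the M4 counts hardly varied between libraries (2334, 2334 and 2338). Its expected counts on M21 were 44639, 53853 and 53058. The 0 calls on M4 therefore cannot be set against the 2 calls on M21 as a like test. Library 2, the lowest for Cd48, was also the one with 1.47% of TPM from ribosomal RNA, whose part in the difference was not tested.

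The receptors differed in how their RNA was split over annotated transcripts. Slamf1 and Cd48 each had a transcript that held nearly the whole gene: Slamf1-201 held 94.2 ± 0.582% of Slamf1 TPM, and Cd48-202 held 99.7 ± 0.600% of Cd48 TPM. The rest of Slamf1 went to Slamf1-202, a transcript with a retained intron (5.75 ± 0.582% of TPM and 9.17 ± 0.899% of expected counts). Ly9-202 and Sh2d1a-201 held more than 50% of their genes. The most abundant transcripts of Slamf6, Cd84 and Slamf7 did not. For Slamf7 the split rested on 15 to 22 reads per library, and a different transcript was highest in each library.

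Among the 6 detected genes, the leading transcript held the smallest mean share of TPM in Slamf6. Its range overlapped that of Cd84-205 (34.8 to 38.8%). Slamf6-204 held 34.5, 35.5 and 32.3% of its TPM, and Slamf6-201 held 23.5, 22.1 and 23.7%. Both encode the receptor, and in all 3 libraries Slamf6-204 was higher on this scale. Slamf6-204 skips exon 7 of Slamf6-201 (chromosome 1, 171941625 to 171941696), an exon of 72 bases or 24 codons that holds switch motif 2. It joins exon 6 to an exon farther downstream instead. The skipped exon is shown on the plus strand with the motif in capitals.
Slamf6 exon 7: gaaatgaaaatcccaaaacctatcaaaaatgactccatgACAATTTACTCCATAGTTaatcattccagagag

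Mouse Ly108 is known to be made in forms with different cytoplasmic tails whose balance varies between strains. Transcripts with both motifs, Slamf6-201 and Slamf6-207, made up 42.7 ± 2.03% of the TPM of protein-coding Slamf6 transcripts. Slamf6-204, with motif 1 only, made up 55.0 ± 1.69%. Counted as reads, without division by transcript length, the order was the opposite: 70.0 ± 1.59% of coding reads were given to the transcripts with both motifs and 29.6 ± 1.50% to Slamf6-204. The annotated Slamf6-204 is 984 bases long with 981 coding bases, while Slamf6-201 has 2485 bases and Slamf6-207 has 5729. Which of the 2 tails is the more abundant therefore depended on the length correction, and the cause was not tested. That both kinds were present in every library did not.

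A further 38.0 ± 1.11% of Slamf6 TPM went to 3 transcripts that are not annotated as protein-coding. Slamf6-206, a processed transcript of 444 bases, held 19.7 ± 1.94%, and Slamf6-205, a retained-intron transcript, held 16.4 ± 1.17%. Of expected counts these 3 transcripts held 21.2 ± 0.657%, Slamf6-206 held 5.70 ± 0.677% and Slamf6-205 held 11.3 ± 0.510%. Summed over its coding transcripts alone, Slamf6 had 113, 118 and 116 TPM (116 ± 2.86). That remained above the coding sum of every other member in all 3 libraries; the next on average, Sh2d1a, had 96.7, 99.8 and 85.4 TPM (94.0 ± 7.57).

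**Figure D2:**
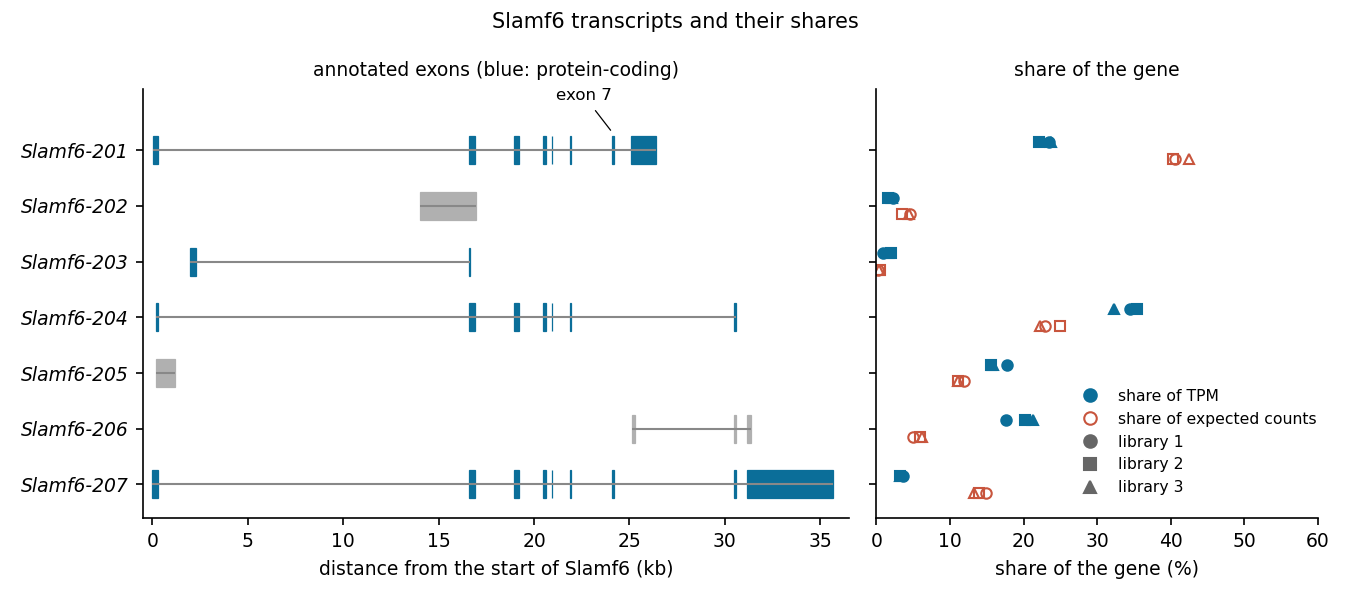
Left, exons of the 7 annotated Slamf6 transcripts by distance from the gene's start in kb, blue where the transcript is protein-coding and grey where it is not. Right, each transcript's share (%) of Slamf6 in libraries 1, 2 and 3 (circles, squares, triangles), as share of TPM (filled) and of expected counts (open): Slamf6-204 is highest by TPM at 32.3 to 35.5%, and Slamf6-201 is highest by expected counts, at 40.3 to 42.4%.

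Ly9 kept both of its switch motifs in the coding transcripts, which made up 85.3 ± 2.47% of its TPM. The choice was instead in the extracellular part. Ly9-202 held 61.4, 57.0 and 53.8% of the gene (57.4 ± 3.78%) and Ly9-201 held 25.9, 27.2 and 28.4% (27.2 ± 1.27%). Ly9-201 lacks exon 2 of Ly9-202 (chromosome 1, 171604990 to 171605319, 330 bases), in the part of the gene that encodes the immunoglobulin-type domains. A transcript annotated for nonsense-mediated decay, Ly9-204, held 11.4, 15.1 and 16.8% (14.4 ± 2.75%). It was highest in library 3, the library with the highest Ly9 level, and lowest in library 1. The Ly9 level itself was lowest in library 2, at 73.9 TPM.

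Cd84 was divided among 4 coding transcripts. Cd84-205 held 36.4 ± 2.08%, Cd84-204 held 28.5 ± 5.05%, Cd84-203 held 19.3 ± 0.332% and Cd84-201 held 15.5 ± 3.26%. Cd84-204 was the least even of the larger ones, at 33.8, 23.8 and 28.0%. As shares of expected counts, without length correction, the same transcripts held 49.2 ± 2.44%, 17.3 ± 3.14%, 27.2 ± 0.496% and 6.27 ± 1.31%, so Cd84-203 then stood above Cd84-204. All but Cd84-203 keep both motifs, and they made up 80.5 ± 0.444% of the gene's TPM in sum. Cd84-203 has 2 exons and 140 codons and holds no motif. Cd84-204 has 8 exons and 1503 bases, and Cd84-205 has 9 exons and 3291 bases. Their coding sequences, of 984 and 987 bases, differ in length by 3 bases. Cd84-204 lacks 3 bases at the start of exon 6 of Cd84-205 (chromosome 1, 171884585 to 171884614 shown), marked in capitals.
Cd84 exon 6 start: CAGatgatgtctcaaagaaaacagtatatg

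Those 3 bases come before switch motif 1 of Cd84, which begins further along the same exon, so 328 codons remain in place of 329.

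For Sh2d1a, the full SAP protein of 126 codons was given to Sh2d1a-201 at 64.8, 52.2 and 70.5% of TPM (62.5 ± 9.37%). Sh2d1a-203, which encodes 123 codons, held 24.2, 28.2 and 24.8% (25.7 ± 2.19%). Library 2 was the lowest in the first and the highest in the second. The shorter form ends exon 1 early and leaves out 9 bases, or 3 codons, shown in capitals at the end of exon 1 (chromosome X, 42502818 to 42502859, plus strand).
Sh2d1a exon 1 end: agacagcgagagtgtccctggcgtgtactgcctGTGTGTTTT

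The transcript Sh2d1a-206 is annotated with an incomplete coding sequence of 277 bases. It held 4.66, 15.1 and 0% (6.58 ± 7.73%), from 14.4, 61.4 and 0 expected counts, so the libraries do not give it a stable share. Its share of expected counts was 3.02 ± 3.65%. Transcripts not annotated as protein-coding took 4.86 ± 0.950% of Sh2d1a TPM and 8.88 ± 2.22% of its expected counts.

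**Figure D3:**
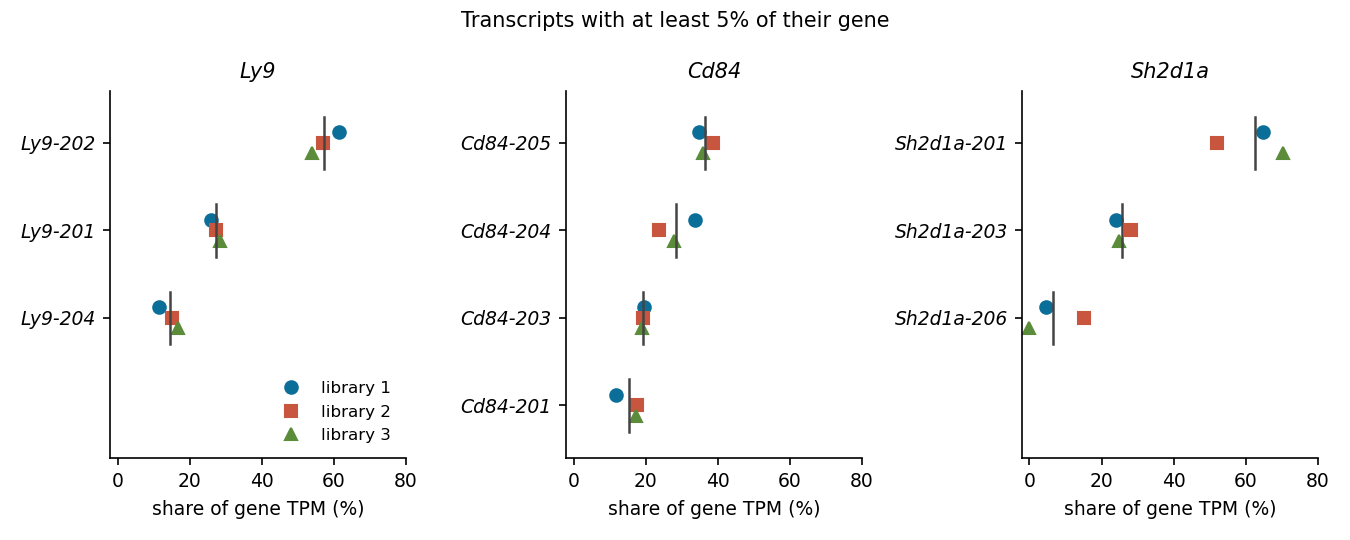
Share of gene TPM (%) of each Ly9, Cd84 and Sh2d1a transcript that holds at least 5% of its gene, in libraries 1, 2 and 3 (circles, squares, triangles), with the mean as a vertical bar. Ly9-202 and Sh2d1a-201 lead their genes at means of 57.4 and 62.5%, while the 4 Cd84 transcripts lie between 15.5 and 36.4%.

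The 6 receptor genes lie in a cluster on chromosome 1, from 171588624 to 171953170, a span of 365 kb on GRCm38. Gm10521, with 2 expected counts, is the 1 other protein-coding gene wholly within the span, between Cd84 and Slamf6. In the span and within 200 kb of it are 14 other protein-coding genes of the annotation, of which 8 were detected, beside the 44.6% given above for all such genes. Cd244a, not detected at 0.113 ± 0.127 TPM, encloses Ly9 on the other strand, and Slamf7 at 0.900 TPM lies between Ly9 and Cd48, at 79.9 and 78.3 TPM. Outside the span, F11r, a junctional adhesion gene, had 0.167 ± 0.0208 TPM, and Copa, which encodes a coat protein of vesicles, had 175 ± 12.6 TPM. Ly9 shares no exon bases with Cd244a. Slamf7 shares 423 of its 4577 exon bases with an antisense gene at 0 counts, and Sh2d1a shares 1465 of 5505 with Tenm1, which had 6.37 expected counts. Whether counting used strand is not given in the sources used here, so reads in these shared bases cannot be told apart.

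**Figure D4:**
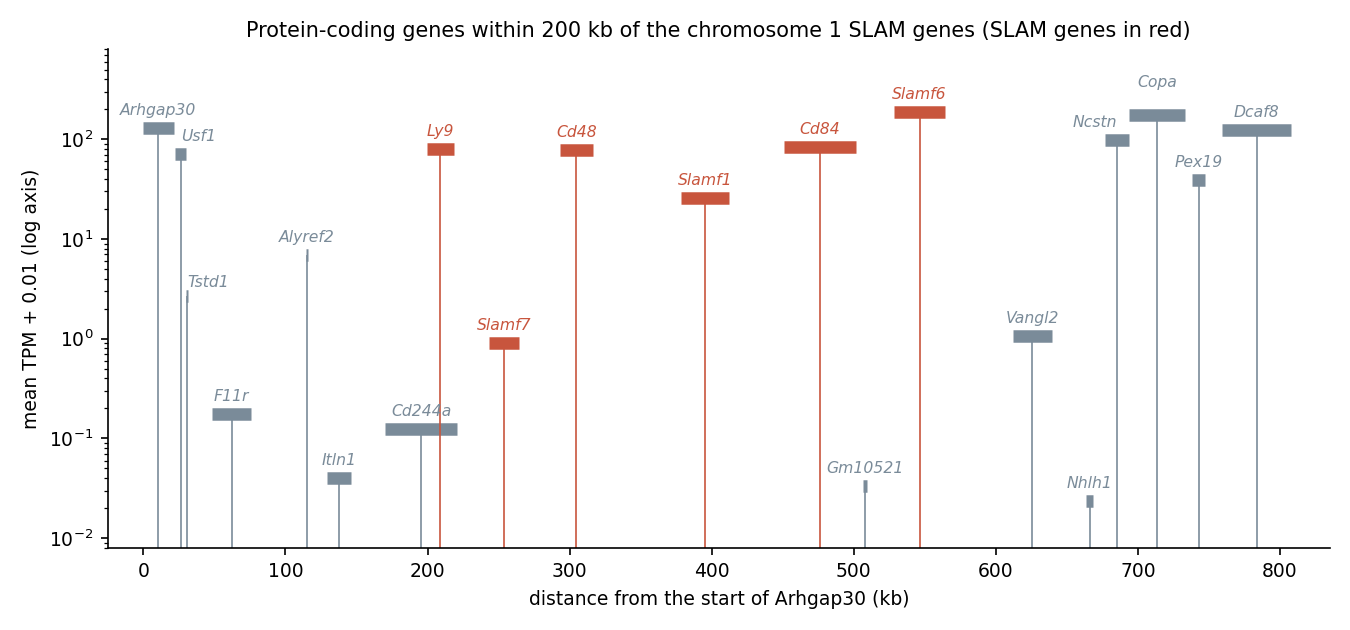
Mean TPM with 0.01 added (log axis) of protein-coding genes within 200 kb of the SLAM genes on chromosome 1, by distance in kb from the start of the leftmost gene, Arhgap30; the width of each block is the gene's length and the SLAM genes are in red. Slamf7 stands at 0.900 TPM between Ly9 at 79.9 and Cd48 at 78.3 TPM. Slamf6 has the highest mean of the region at 187 TPM. Its range over libraries (180 to 191 TPM) overlaps that of Copa (160 to 183 TPM).

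Of 11 signalling genes tied to SAP, which include phosphatases that compete with it, 11 were detected, beside 44.6% of protein-coding genes. Their median was 161 TPM. Fyn, the kinase that SAP carries to the receptors, had 365, 308 and 380 TPM (351 ± 38.1). Lck, its relative and the main kinase of the T cell receptor, had 1246, 994 and 1307 TPM (1182 ± 166). Library 2 was the lowest for both. Prkcq (protein kinase C theta, 302 ± 18.4 TPM) and Bcl10 (161 ± 3.39 TPM) link the receptors to NF-κB. Among the phosphatases that compete with SAP for the motif, Ptpn6 (SHP-1) had 196 ± 25.2 TPM, Inpp5d (SHIP-1) had 129 ± 3.86 TPM and Ptpn11 (SHP-2) had 12.1 ± 2.01 TPM. The test between technical libraries called 9 of these 11 genes, beside the 40.0% of all genes given above. Such a test finds smaller differences in genes with more counts, and these had 1160 to 60588 pooled counts. Among genes averaging at least 50 counts the share called was 47.8%, and no share over genes of like counts was computed.

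Of 6 genes of the T cells that need SAP to form, 3 were detected, beside 44.6% of protein-coding genes, and the median of the 6 was 1.37 TPM, beside 0.357 TPM over protein-coding genes. Bcl6, the regulator of T follicular helper cells, stood at 19.5, 21.4 and 17.2 TPM (19.4 ± 2.11), and the follicular homing receptor Cxcr5 at 2.65, 2.60 and 2.75 TPM (2.67 ± 0.0764). Pdcd1 (PD-1) had 7.64 ± 0.983 TPM. Zbtb16, the regulator of natural killer T cells, had 4 expected counts over all libraries, Il21 had 3 and Il4 had 1.

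**Figure D5:**
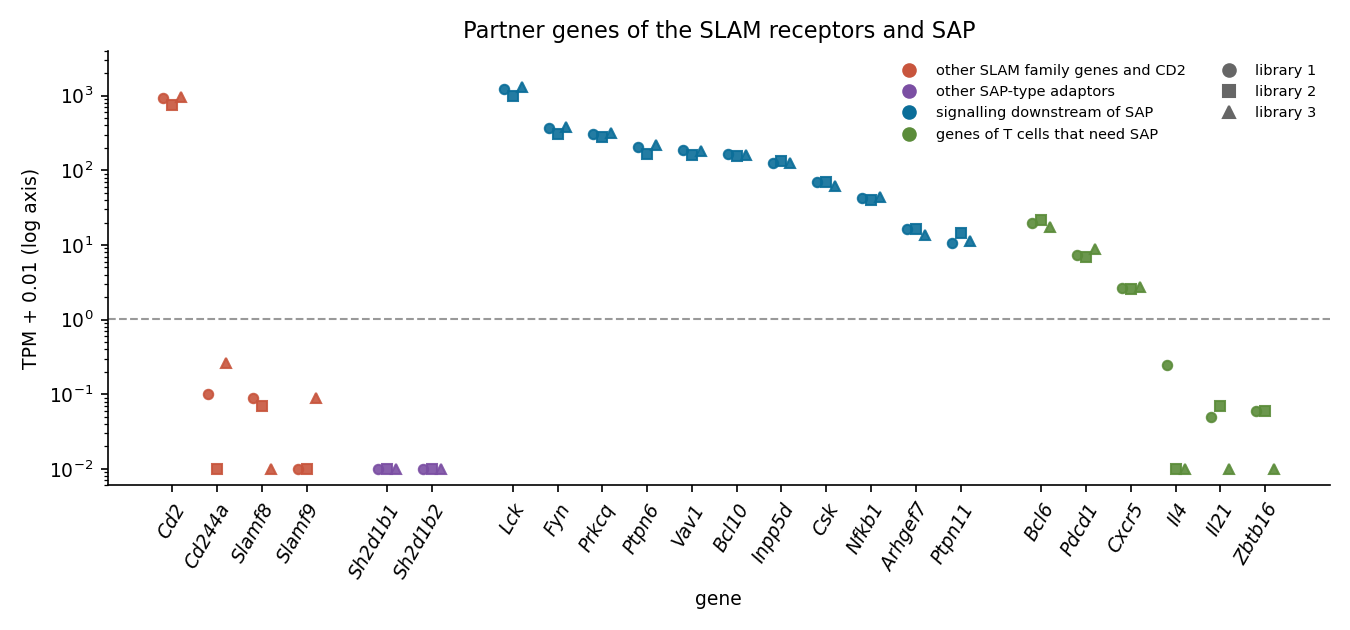
TPM with 0.01 added (log axis) in libraries 1, 2 and 3 (circles, squares, triangles). Groups are other SLAM family genes and Cd2, other SAP-type adaptors, and genes of T cells that need SAP. A further group, signalling genes tied to SAP, is labelled as downstream of SAP. The dashed line is 1 TPM. All 11 signalling genes lie above the line, from 12.1 to 1182 TPM on average, while Sh2d1b1 and Sh2d1b2 are at 0 in every library.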

How the data were processed

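The samples were 3 technical libraries of polyadenylated RNA, numbered as the labels number technical replicates, all of naive CD4+ T cells of 1 mouse. Per the labels, fragments were made by shearing and the size range was 100 to 300. Per the text deposited with the files, the assembly was mm10, annotated by GENCODE M21 (gene and transcript tables) or M4 (1 further table). No aligner, counter or strand setting is named in the sources used here.

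Per the file headers, the authors deposited expected counts (estimated reads, maximum likelihood and posterior mean) and TPM. The deposited credibility bounds of TPM are an abundance signal on the posterior scale. The authors' isoform percent splits the TPM of a gene over its transcripts. Whole-number counts per gene on M4 were deposited without a header and served only as an alternative. Rows without a gene entered neither library sizes nor tests (0.247, 0.200 and 0.325% of expected counts).

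Symbols, positions, coding sequences and exons came from GENCODE M21; all 7 members and all 63 genes of 13 lists were found. The members and lists were chosen with earlier results of these data known. Named were all members, genes of the fixed lists, protein-coding genes within 200 kb and transcripts with at least 5% of a member. Detection meant at least 1 TPM in every library. Ratios used TPM with 0.1 added; pooled ratios have exact Clopper-Pearson 95% intervals (scipy 1.17.1). Expected counts were rounded, scaled by TMM (edgeR 4.0.16, R 4.3.3) and tested by chi-square homogeneity for genes averaging at least 10 counts, with Benjamini-Hochberg adjustment at 0.05; p-values measure the spread between technical libraries. Switch motifs were found by translating coding sequences (Biopython 1.88). Reads carry no molecular identifiers, so intervals and floors cover counting error only. Alternatives were posterior means, rescaled TPM, other minimums, pseudocounts of 1 and 0.01, DESeq2 1.42.0 size factors, library totals, the M4 counts and leaving out each library; shares of expected counts and the alternatives of the Slamf6 tail difference were added after seeing the data.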

Additional observations from a re-analysis of the deposited data

How the results depend on the processing

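The detected count stayed at 6 of 7 genes under posterior means, rescaled TPM, a minimum of 5 TPM and each left-out library, and was 7 at 0.5 TPM or any count. The median of 79.9 TPM was 69.3 on posterior means, 94.1 on TPM rescaled over protein-coding genes without mitochondrially encoded genes, and 78.0 to 83.1 with 1 library left out. The log2 ratio of Slamf6 to Slamf1 was 1.86 without length correction and 1.68 on the M4 counts, and 2.84 to 2.90 with 1 library left out. That of Ly9 to Cd84 was −0.10 on expected counts without length correction and turned to 0.91 on the M4 counts. The cause was not tested. That of Cd48 to Cd2 was −3.45 on expected counts without length correction and −1.99 on the M4 counts. That of Cd48 to Cd244a, which rests on 6 counts, was 7.57 on posterior means, 6.15 with a pseudocount of 1 and 10.25 with 0.01, and 8.33 to 9.14 with 1 library left out. Members called between libraries numbered 2 with DESeq2 size factors (40.0% of genes tested were called) or library totals (42.4%). With 1 library left out they numbered 1 to 2 (14.7 to 36.8%). On the M4 counts 0 of 7 were called, beside 18.9% of 10013 genes. There 1 member, Cd48, had an unadjusted p under 0.05, and 3 members did in the reported chi-square test. The M4 counts are not like counts for this test, as given above for Ccr7. The difference between Slamf6 coding transcripts with both motifs and with 1 motif, −12.3 percentage points of TPM, turned to 40.3 points of expected counts; with 1 library left out it was −10.4 to −14.0. Of single-gene and single-transcript values, 52 stayed within 1 SD and 18 moved. Most of the 52 came from leaving out 1 of 3 libraries, which cannot shift a mean by 1 SD. Elsewhere, all 7 gene levels moved on posterior means and 6 of 7 on rescaled TPM. Leading transcript shares moved for 1 of 7 genes on posterior means and for 4 of 7 as shares of expected counts. No paired analysis was possible because there is 1 group. Depth limits what can be said of Slamf7, with 52 counts, among the members.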

Other observations

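The older M4 count table gave the 7 genes unequal shares of their expected counts on M21. The share was 65.4 ± 3.62% for Ly9, 58.0 ± 2.23% for Cd48, 45.4 ± 2.94% for Slamf1, 40.1 ± 3.04% for Sh2d1a, 39.9 ± 1.83% for Slamf6 and 32.4 ± 1.11% for Cd84, beside a median of 51.5% over 10709 genes. Slamf7, with 31 counts on M4, had 62.5 ± 19.9%. Ly9 had 3619 counts on M4 and Slamf6 had 3031, so the gene with the most reads among the 7 was Ly9 in that table and Slamf6 on M21, where Slamf6 had 7626 expected counts and Ly9 had 5560. Neither order is corrected for length. The M4 libraries held 5160325 to 5816158 counts in all, beside 14837442 to 18207118 expected counts on M21. Ccr7, the highest of the naive T cell markers, kept a far smaller part than the 7 genes. It had 2334, 2334 and 2338 counts on M4, beside 44639, 53853 and 53058 expected counts. Unequal shares are therefore not particular to the 7 genes.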
